A study of Mus musculus with 16 samples.

Results

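Quadriceps muscle of mice given a CSF1-R inhibitor was compared with that of mice given placebo in the 12 of 16 RNA-seq libraries that held little Prg4 RNA. Prg4 encodes lubricin, the lubricant of joint surfaces, and the 12 libraries were selected on its level, which had to be below 100 CPM (counts-per-million, a gene's count scaled to the total of its library). Prg4 ranged from 3.76 to 17.9 CPM in the libraries kept, with placebo healthy 3 highest at 17.9, and from 168 to 318 CPM in the 4 left out, with inhibitor healthy 1 lowest at 168. Prg4 chose the libraries and is not itself a result.

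The study cut a stabilising ligament of the knee, the anterior cruciate ligament (ACL), and for 7 days afterwards the mice drank either the CSF1-R inhibitor at 40 mg/kg or 0.5% sucrose, which served as placebo. The quadriceps, which straightens the knee, was taken from healthy and from injured limbs. Column names link a healthy and an injured limb under 1 stem, which was read as 1 animal, giving 4 animals of each treatment. The inhibitor group held 7 libraries: the injured limb of animal 1 and both limbs of animals 2, 3 and 4, so 3 healthy and 4 injured limbs. The placebo group held 5: both limbs of animal 1, the healthy limbs of animals 2 and 3 and the injured limb of animal 4, so 3 healthy and 2 injured limbs. Left out were inhibitor healthy 1, placebo injured 2, placebo injured 3 and placebo healthy 4. Every animal had undergone the transection. The chemical name of the inhibitor, and the strain, sex and age of the mice, are not given in the sources used here.

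The 12 libraries held 20.1 to 27.1 M (mega) counts each, and 3 counts, taken as the floor of detection, corresponded to 0.111 to 0.149 CPM. Mitochondrially encoded genes took 12.2 to 18.5% of the counts in inhibitor libraries and 11.5 to 19.0% in placebo libraries. All 16 skeletal muscle identity genes were tested. Their summed level ran from 152822 to 194842 CPM in inhibitor and from 133761 to 203261 CPM in placebo libraries, so the libraries carried the RNA of the labelled tissue and the treatments overlapped in it.

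CSF1-R is the receptor through which the growth factors CSF1 and IL-34 keep monocytes and tissue macrophages alive, and its blockade is used to deplete macrophages. Muscle fibres also run a circadian clock of their own. In it the activators BMAL1 (gene Arntl), CLOCK and NPAS2 bind E-box sequences and switch on the Per, Cry and Nr1d genes, whose proteins in turn repress the activators or their genes, and output factors such as DBP pass the rhythm on to metabolic genes.

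No gene passed the test. Counts were summed per animal, and edgeR's quasi-likelihood test compared 4 inhibitor with 4 placebo animals, with the share of injured limbs among an animal's libraries as covariate. At a Benjamini-Hochberg adjusted p below 0.05 it called 0 of 16046 genes higher (0.0%) and 0 lower (0.0%), and the smallest adjusted p was 0.0953, for Irf2bp2. At an unadjusted p below 0.05 there were 773 genes (4.82%), 375 higher (2.34%) and 398 lower ones (2.48%). DESeq2 on the same animals called 10 higher (0.0792%) and 18 lower (0.143%), together 0.222%, of 12624 genes to which it gave an adjusted p. With the 12 libraries as separate units, edgeR called 2 higher (0.0125%) and 5 lower (0.0312%), together 0.0436%, and limma-voom with a correlation within animals called 2 higher (0.0125%) and 3 lower (0.0187%). The log2 difference (inhibitor minus placebo) was above 0 for 49.9% and below 0 for 50.1% of genes and had a median of -0.0005, with 5% of genes below -0.46 and 5% above 0.58.

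Where the treatments did not overlap, circadian genes were among the lower ones. Inhibitor was above placebo in all 12 libraries for 38 genes (0.237%) and below it for 61 (0.38%). Of 32 tested genes of the core clock and its output, 6 were below placebo in all 12 libraries: Per1, Per2, Per3, Nr1d2, Bhlhe40 and Usp2. No clock gene was above placebo in all 12. When the 4 lubricin-high libraries were put beside the 12, the treatments remained apart for 30 of the 99 genes, 5 higher (0.0312%) and 25 lower (0.156%), and these 25 held the same 6 clock genes.

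**Figure D1:**
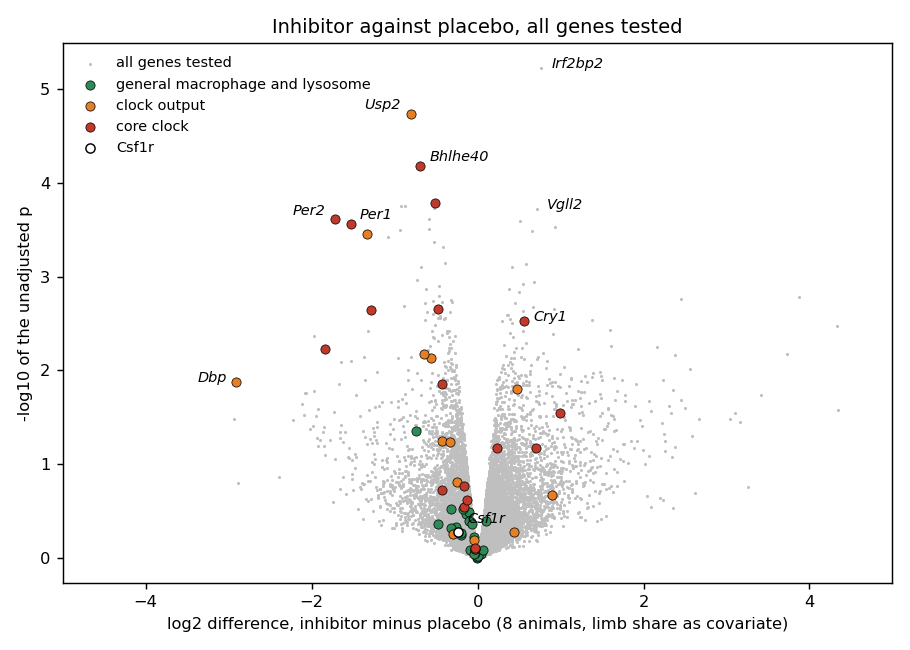
Each dot is 1 of 16046 genes, placed by its log2 difference (inhibitor minus placebo, horizontal axis) and by -log10 of its unadjusted p in edgeR's test over 8 animals (vertical axis), with core clock, clock output and general macrophage genes coloured and Csf1r as an open circle. Irf2bp2, Usp2 and Bhlhe40 stand highest, and Csf1r lies near the bottom at -0.24.

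The 3 Period genes encode repressors that close the feedback loop of the clock. Per1 (ENSMUSG00000020893, GRCm38 chromosome 11, 69095217 to 69109960) was at 36.9 and 34.9 CPM in the healthy and injured limb of placebo animal 1, 29.5 in placebo healthy 2, 47.8 in placebo healthy 3 and 52.2 in placebo injured 4. In the 7 inhibitor libraries it ranged from 7.26 to 18.9 CPM with a median of 16.04. Every inhibitor library was thus below every placebo library, and the animal means were 15.6 ± 4.00 and 41.4 ± 10.5 CPM (SD, n = 4). Its log2 difference was -1.53 ± 0.25 (SE; 95% interval -2.10 to -0.95), which is 2.88-fold lower, at an edgeR adjusted p of 0.329. The lubricin-high libraries lay on the same sides, with Per1 at 23.1 CPM in inhibitor healthy 1 and at 39.1, 39.2 and 40.2 CPM in placebo injured 2, placebo injured 3 and placebo healthy 4.

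Per2 (ENSMUSG00000055866, chromosome 1, 91415982 to 91459324) was at 3.69, 5.24, 5.04, 8.35 and 11.2 CPM in the placebo libraries, taken in the same order. Inhibitor libraries held 1.76 to 3.42 CPM with a median of 2.56, all below the lowest placebo library. The log2 difference of Per2 was -1.72 ± 0.31 (95% interval -2.40 to -1.03), with an edgeR adjusted p of 0.329 on animals and 0.0476 on the 12 libraries as separate units. Over all 26 alternatives the log2 difference of Per2 stayed between -1.96 and -1.28, and its adjusted p between 0.000115 and 1.00. Per3 was at 18.7, 21.4, 28.7, 37.6 and 41.5 CPM with placebo and at 9.40 to 17.5 CPM with inhibitor, with a log2 difference of -1.29 ± 0.29. Without placebo animal 4 that of Per3 was -0.66 ± 0.32. Placebo animal 4 was the only placebo animal with an injured limb alone. Without it the limb shares were 0.5, 0 and 0 in placebo and 1, 0.5, 0.5 and 0.5 in inhibitor animals. Treatment and limb share then lay close together, and the median SE over all genes rose from 0.175 to 0.246. Here and below, fits without placebo animal 4 cannot tell that animal's part from that of the lost limb balance.

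Other repressors of the loop had negative log2 differences too. Bhlhe40 (ENSMUSG00000030103, chromosome 6, 108660629 to 108666925), which encodes a repressor of CLOCK and BMAL1, was at 155, 157, 168, 128 and 162 CPM in placebo libraries and at 81.3 to 112 CPM (median 97.7) in inhibitor libraries. These groups did not overlap, and the log2 difference was -0.69 ± 0.11. Nr1d2, a nuclear receptor that represses Arntl, was at 114, 121, 120, 121 and 138 CPM against 79.5 to 106 CPM, again without overlap, with a log2 difference of -0.52 ± 0.09. Its partner Nr1d1 was at 183, 168, 238, 187 and 206 CPM against 116 to 189 CPM, so that it overlapped, with -0.43 ± 0.14, or -0.19 ± 0.19 without placebo animal 4, which is 1 library. Cry2, a Cryptochrome repressor, separated the animals (29.1 ± 1.80 against 39.1 ± 5.65 CPM, SD, n = 4) but not the libraries. Ciart, a repressor of low level, was at 0.559 ± 0.185 CPM in inhibitor and 1.99 ± 1.22 CPM in placebo animals, with a log2 difference of -1.84 ± 0.53. The values were -1.05 ± 0.78 for Ciart and -0.31 ± 0.17 for Cry2 without placebo animal 4.

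The activators and Cry1 had positive log2 differences. Cry1, a Cryptochrome that peaks later in the cycle than the Period genes, had a log2 difference of 0.56 ± 0.15 and was at 17.4 CPM or more in every inhibitor library (median 22.4). Placebo libraries held 22.2, 13.9, 15.1, 12.2 and 13.4 CPM, so the healthy limb of placebo animal 1 reached into the inhibitor range. Npas2 had a log2 difference of 0.99 ± 0.39, Arntl of 0.71 ± 0.33 and Clock of 0.24 ± 0.12, none past the threshold. That of Clock was 0.04 ± 0.14 without placebo animal 4. In sum 13 of 17 tested core clock genes had a negative and 4 a positive log2 difference, with a median of -0.43. An unadjusted edgeR p below 0.05 was reached by 8 of the lower and 2 of the higher ones, against 2.48% and 2.34% of all genes. The list was chosen with earlier results of these data known. Over animals 7 core clock genes were lower without overlap (Per1, Per2, Per3, Cry2, Nr1d2, Bhlhe40 and Ciart), against 1.86% of all genes tested, and none was higher without overlap, against 1.78%. The core clock median depended on the unit: it was -0.23 with edgeR on libraries and -0.11 with limma-voom. It was -0.20 without placebo animal 4.

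**Figure D2:**
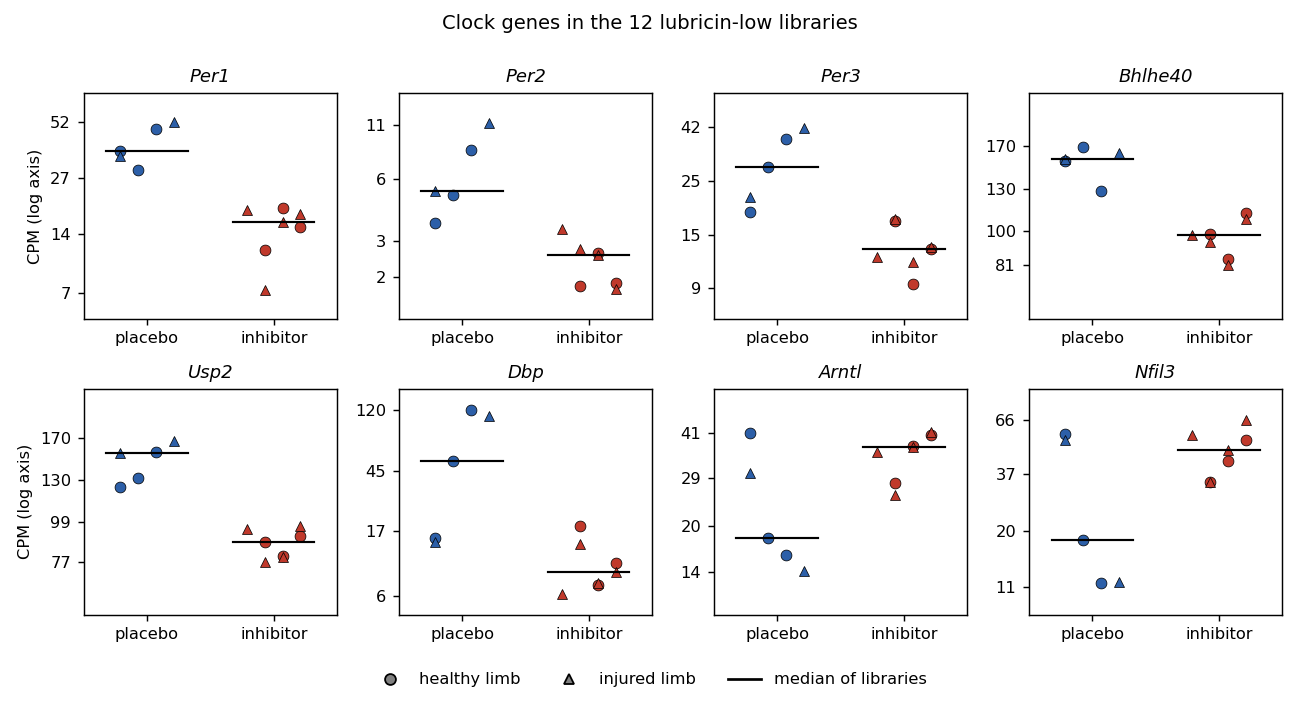
CPM (log axes) of 8 clock genes in 5 placebo and 7 inhibitor libraries, with circles for healthy and triangles for injured limbs, limbs of 1 animal in 1 column and a line at the median of the libraries. Per1, Per2, Per3, Bhlhe40 and Usp2 do not overlap between treatments, whereas placebo animal 1 lies within or near the inhibitor libraries for Dbp, Arntl and Nfil3.

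Most genes downstream of the clock were lower too in the 12 libraries, with wider spread. Usp2 (ENSMUSG00000032010, chromosome 9, 44067021 to 44095627), which encodes a deubiquitinating enzyme under clock control, was at 124, 155, 132, 155 and 166 CPM with placebo and at 76.8 to 97.0 CPM (median 87.1) with inhibitor. The groups did not overlap, and Usp2 had a log2 difference of -0.80 ± 0.11 at an edgeR adjusted p of 0.147. The adjusted p of Usp2 was 0.00402 with edgeR on libraries, 0.00597 with limma-voom and 3.58e-06 with DESeq2, and reached 1.00 among the alternatives. Coq10b, a coenzyme Q binding protein of mitochondria, was at 5.68, 7.77, 13.1, 13.7 and 13.4 CPM against 3.61 to 5.77 CPM. Its log2 difference was -1.33 ± 0.25, which became -1.58 ± 0.14 without placebo animal 1 and -0.80 ± 0.33 without placebo animal 4.

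The factors that bind D-box sequences carry the rhythm to other genes: DBP, TEF and HLF activate there and NFIL3 represses. Dbp was at 15.2 and 14.3 CPM in the limbs of placebo animal 1 and at 52.6, 122 and 111 CPM in placebo healthy 2, healthy 3 and injured 4, against 6.18 to 18.4 CPM with inhibitor. Both limbs of placebo animal 1 therefore lay inside the inhibitor range. The log2 difference of Dbp was -2.91 ± 0.81 (95% interval -4.93 to -0.89). It was -0.85 ± 0.85 without placebo animal 4, a fit in which treatment and limb share lay close together. Nfil3 was at 56.9 and 53.6 CPM in placebo animal 1, 18.2, 11.4 and 11.5 CPM in the other placebo libraries and 33.8 to 66.3 CPM with inhibitor. Its log2 difference was 0.90 ± 0.64 with all animals, 1.87 ± 0.28 without placebo animal 1 and 0.06 ± 0.45 without placebo animal 4.

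Arntl showed placebo animal 1 on the inhibitor side too, at 40.7 and 30.1 CPM against 18.2, 15.9 and 14.1 CPM in the other placebo libraries and 25.4 to 41.0 CPM with inhibitor. Without placebo animal 1 its log2 difference was 1.16 ± 0.15, and without placebo animal 4 it was 0.18 ± 0.28. For Per1, Bhlhe40, Nr1d2 and Usp2, by contrast, placebo animal 1 lay with the other placebo animals. Tef and Hlf had log2 differences of -0.56 ± 0.17 and -0.65 ± 0.19, which without placebo animal 4 were -0.29 ± 0.23 and -0.10 ± 0.19. Of 15 tested clock output genes 12 were lower and 3 higher, with a median of -0.30, or -0.14 without placebo animal 4. With all 16 libraries 8 were lower and 7 higher, with a median of -0.38. The time of day at which each animal was sampled is not given in the sources used here, and its part in the clock values was not tested.

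The regulatory sequences of the clock genes were read from RefSeq promoter windows (GRCm38.p6), because the clock activators bind the E-box CACGTG, which reads the same on both strands. In the 250 bases before a start site, 9 of 40 windows of the 27 clock genes matched held this motif (22.5%), against 6.02% of all 32851 windows. Genes not matched to a window, Per2 and Bhlhe40 among them, were not searched. A gene can have several windows, and those of 1 gene can overlap. The genes with the motif were Bhlhe41, Ciart, Coq10b, Cry1, Lonrf3, Per1, Tef and Tspan4. They include Cry1 and Lonrf3, whose log2 differences were positive, and a match is a description of the letters only. Of the genes printed, Per1, Ciart and Tef were lower and Cry1 higher. Each stretch of 60 bases runs 5′ to 3′ on the gene's strand with E-boxes in capitals, from chr11:69098756-69098815 (plus strand) for Per1, chr3:95882254-95882313 (minus) for Ciart, chr15:81811249-81811308 (plus) for Tef and chr10:85185082-85185141 (minus) for Cry1.
Per1: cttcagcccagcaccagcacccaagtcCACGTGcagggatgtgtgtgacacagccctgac
Ciart: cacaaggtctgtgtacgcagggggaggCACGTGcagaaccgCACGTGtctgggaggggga
Tef: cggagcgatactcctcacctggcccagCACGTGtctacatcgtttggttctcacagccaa
Cry1: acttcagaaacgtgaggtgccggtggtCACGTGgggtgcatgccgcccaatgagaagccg
Counted from the RefSeq start of its own window, the printed E-box began 166 bases before it in Per1, 138 in Tef and 60 in Cry1. For Per1 and Tef that start lies inside the gene as GENCODE M21 draws it, and Tef had a further E-box 127 bases before another start. Ciart had 3 E-boxes, 116, 58 and 44 bases before its start, of which the printed stretch shows the latter pair. The D-box TTATGTAA, searched on both strands, was in 2 windows, of Coq10b and Per3, which is 5.0% of the clock windows against 0.819% of all.

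Outside the clock, Irf2bp2 had the smallest p. Irf2bp2 (ENSMUSG00000051495, chromosome 8, 126588296 to 126593986), which encodes a corepressor that binds the transcription factor IRF2, was at 39.1, 29.9, 36.7, 30.8 and 41.7 CPM in placebo libraries and at 52.9 to 74.5 CPM (median 63.3) in inhibitor libraries. The treatments did not overlap, with animal means of 65.0 ± 7.00 and 36.1 ± 4.50 CPM (SD, n = 4) and a log2 difference of 0.77 ± 0.09. Over the 26 alternatives the log2 difference of Irf2bp2 stayed between 0.68 and 0.91, and its adjusted p between 2.79e-08 and 0.617. Among the lubricin-high libraries, placebo injured 2 was at 56.1 CPM and so reached the inhibitor range. Its relative Irf2bpl had a log2 difference of 0.35 ± 0.09 and also did not overlap in the 12 libraries, while Irf2bp1 had 0.02 ± 0.10 (95% interval -0.21 to 0.24).

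Further genes were higher with the inhibitor without overlap among animals, as were 1.78% of all genes, while 1.86% were lower. Apart from Aqp1 and Slc4a8, the genes here and in the next paragraph were picked among those without overlap. Their lack of overlap among animals is therefore not itself a result. Vgll2 (ENSMUSG00000049641, chromosome 10, 52022502 to 52028471), a muscle cofactor of TEAD transcription factors, was at 61.4, 66.4, 74.3, 64.8 and 89.4 CPM against 95.9 to 161 CPM, a log2 difference of 0.72 ± 0.13. It stayed apart in all 16 libraries, with 150 CPM in inhibitor healthy 1 and 64.5 to 76.4 CPM in the left-out placebo libraries. Dusp8, a phosphatase of stress-activated kinases, had a log2 difference of 0.66 ± 0.13, with placebo injured 1 at 55.0 CPM above the lowest inhibitor library at 51.4 CPM. Tet2, which oxidises methylated cytosine in DNA, had 0.51 ± 0.10, Fgf6, a growth factor of muscle, 0.55 ± 0.13, and Amot, a scaffold of the Hippo pathway, 0.42 ± 0.09. Fgf6 and Amot did not overlap in any of the 12 libraries.

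Lower genes outside the clock included Mylk4, a kinase of the myosin light chain kinase family, at 1208, 913, 986, 1338 and 1752 CPM in placebo libraries and 505 to 887 CPM (median 722) in inhibitor libraries. It did not overlap in the 12 or in the 16 libraries, and its log2 difference was -0.94 ± 0.18, or -0.58 ± 0.22 without placebo animal 4. Aqp1 (ENSMUSG00000004655, chromosome 6, 55336432 to 55348555), the water channel of capillary endothelium, was at 293, 321, 313, 282 and 294 CPM against 200 to 247 CPM, with a log2 difference of -0.41 ± 0.08. It did not overlap in the 12, but placebo injured 2 and 3, both lubricin-high, were at 205 and 230 CPM, and with all 16 libraries the log2 difference was -0.21 ± 0.09. Slc4a8, a sodium-dependent bicarbonate transporter, was at 5.64, 6.67, 4.55, 4.88 and 4.09 CPM against 1.44 to 2.93 CPM, a log2 difference of -1.07 ± 0.21. Cep85l, which encodes a centrosomal protein, had -0.93 ± 0.16, Dusp7, a phosphatase of ERK, -0.88 ± 0.15, and Sh3rf2 and Galnt15 -0.59 ± 0.11 and -0.58 ± 0.11. Without placebo animal 4 Cep85l was called, at -1.32 ± 0.12 and an edgeR adjusted p of 0.0153, within a range of 0.00017 to 1.00 over its alternatives.

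**Figure D3:**
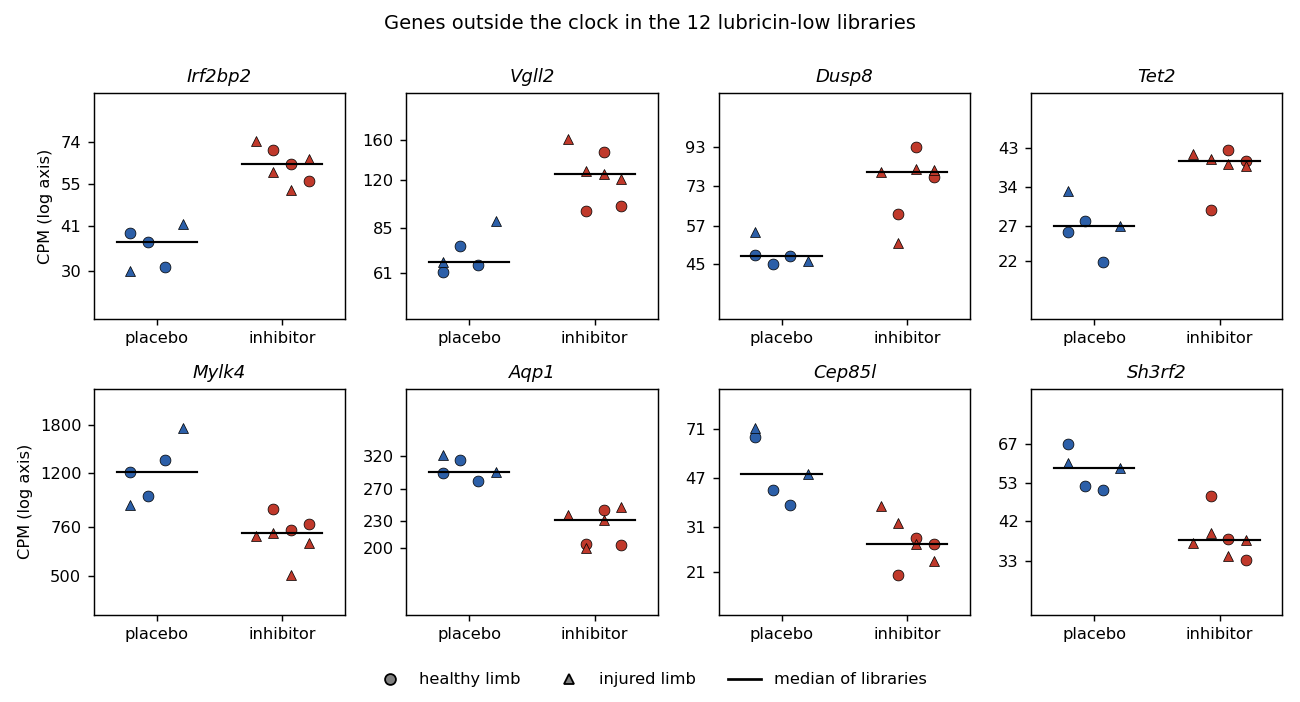
CPM (log axes) of 8 genes outside the clock in 5 placebo and 7 inhibitor libraries, drawn as for the clock genes. Irf2bp2, Vgll2, Mylk4, Aqp1, Cep85l and Sh3rf2 do not overlap, while 1 inhibitor library each of Dusp8 and Tet2 lies within the placebo range.

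The receptor that the inhibitor targets, and its ligands, overlapped between treatments. Csf1r was at 1.73 and 17.5 CPM in the healthy and injured limb of placebo animal 1, 12.7 in placebo healthy 2, 3.17 in placebo healthy 3 and 10.1 in placebo injured 4, and at 3.17 to 11.6 CPM (median 7.93) with inhibitor. The lowest and the highest of the 12 libraries were both limbs of placebo animal 1. The log2 difference of Csf1r was -0.24 ± 0.37, with a 95% interval from -1.09 to 0.61. An inhibitor of the receptor protein need not change the mRNA of the receptor, and in bulk RNA fewer cells of a type and less RNA per cell cannot be told apart. Csf1 had a log2 difference of 0.21 ± 0.16 (95% interval -0.14 to 0.56), and Il34 of -0.04 ± 0.21 (-0.51 to 0.43). Of 16 tested genes of the CSF1R axis 9 were higher and 7 lower, with a median of 0.03, and none had an unadjusted p below 0.05.

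No macrophage gene passed the test. Of 27 general macrophage and lysosome genes 22 had a negative log2 difference, with a median of -0.10, against 50.1% of all genes. Adgre1, which encodes the macrophage marker F4/80, was at 0.516, 5.20, 1.98, 0.954 and 2.53 CPM against 0.199 to 2.60 CPM, with a log2 difference of -0.40 ± 0.36 (95% interval -1.20 to 0.40). Cd68, a lysosomal glycoprotein of macrophages, had -0.47 ± 0.57 and Ctss, a lysosomal protease, -0.21 ± 0.35. Itgam, the integrin chain CD11b, had -0.74 ± 0.33 and was the single member with an unadjusted p below 0.05. Without inhibitor injured 2 the value of Itgam was -0.49 ± 0.35. These markers were present in inhibitor libraries, where the summed level of the list ran from 1584 to 1795 CPM, against 1543 to 2236 CPM with placebo.

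Of 15 markers of resident macrophages 10 were lower, with a median of -0.20 and summed levels of 561 to 772 CPM with inhibitor and 569 to 707 CPM with placebo. Cd163, a scavenger receptor for haemoglobin, was at 0.958, 13.7, 4.73, 3.36 and 8.09 CPM against 2.19 to 6.08 CPM, with a log2 difference of -0.54 ± 0.22. F13a1, coagulation factor XIII of macrophages, had -0.66 ± 0.28, and Mrc1, the mannose receptor, -0.34 ± 0.23. Without placebo injured 1 Cd163 had -0.29 ± 0.45 and F13a1 -0.41 ± 0.36. The complement gene C1qa had 0.03 ± 0.27 and the monocyte chemokine receptor gene Ccr2 -0.33 ± 0.37. All of these overlapped between treatments. By limb, the median of the resident list was 0.06 in healthy limbs alone (3 against 3) and -0.66 in injured limbs alone (4 against 2). The difference between limbs was tested gene by gene, and for Cd163 it was -1.44 ± 0.66 at an edgeR adjusted p of 1.00.

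**Figure D4:**
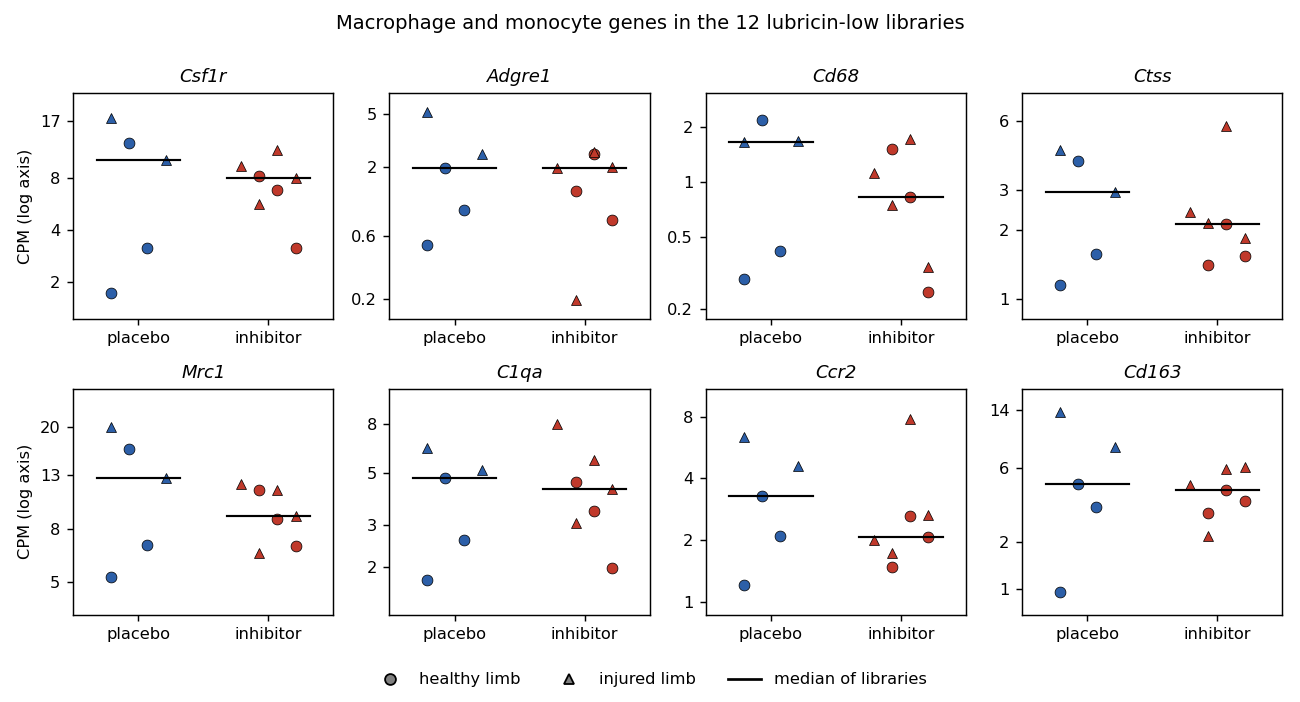
CPM (log axes) of 8 macrophage and monocyte genes in 5 placebo and 7 inhibitor libraries, drawn as for the clock genes. All 8 overlap, and the injured limb of placebo animal 1 is the highest placebo library for Csf1r, Adgre1, Ctss, Mrc1, C1qa, Ccr2 and Cd163.

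Adding the 4 lubricin-high libraries moved the medians of several immune lists by more than 0.5. The 12 and the 16 libraries share 12, so their values are set side by side without a test. The median log2 difference of general macrophage genes was -0.10 in the 12 and -1.55 in the 16, where all 27 were lower. For the CSF1R axis the medians were 0.03 and -1.31, for monocyte markers 0.03 and -1.84, for MHC class II and dendritic cell genes -0.02 and -1.23, and for interferon-stimulated genes 0.11 and -0.48. Lipid-associated repair macrophage genes gave 0.095 and -0.44, chemokines and cytokines -0.038 and -0.68, and the 2 tested neutrophil genes -0.11 and -1.41. Complement genes, at -0.12 and -0.45, and mast cell genes, at 0.16 and 0.13, moved less. The core clock gave -0.43 and -0.30 and clock output -0.30 and -0.38. Csf1r itself went from -0.24 ± 0.37 to -1.55 ± 0.48. With all 16 libraries edgeR called 0 genes higher and 0 lower (0.0% each), with 841 higher and 1443 lower at an unadjusted p below 0.05. Of the 4 added libraries 3 were placebo and 1 was inhibitor. The 3 placebo ones held 31.4 to 74.5 CPM of Csf1r, and inhibitor healthy 1 held 14.4 CPM. The selection on Prg4 thus also left out the placebo libraries with the most Csf1r. The overlap of Csf1r and of macrophage genes in the 12 libraries is tied to that selection and holds for these libraries only.

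**Figure D5:**
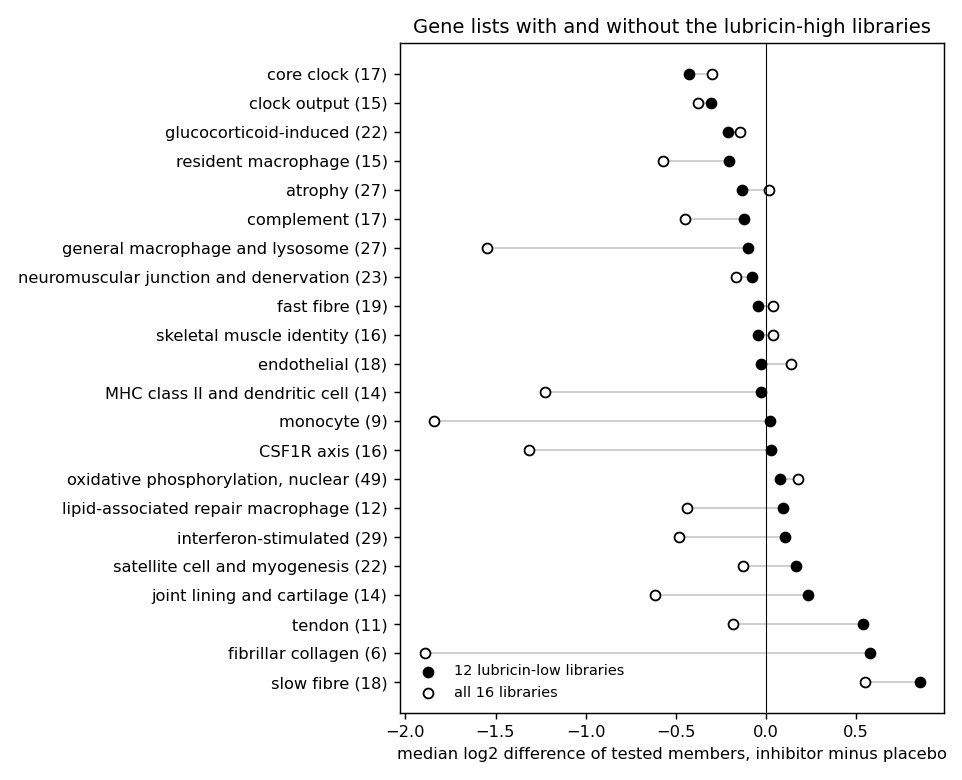
Median log2 difference (inhibitor minus placebo, horizontal axis) of the tested members of 22 gene lists, with their number in brackets, in the 12 lubricin-low libraries (filled) and in all 16 (open). The general macrophage list moves from -0.10 to -1.55 and fibrillar collagens from 0.58 to -1.89, while the core clock moves from -0.43 to -0.30.

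A few other immune-linked and signalling genes separated the animals. Igf1, a growth factor made by macrophages and muscle, was at 8.22, 18.6, 14.1, 6.26 and 15.2 CPM against 10.3 to 32.3 CPM (median 19.0), with a log2 difference of 0.74 ± 0.26. Vcan, the proteoglycan versican, was at 5.49 ± 1.19 against 3.07 ± 1.00 CPM in the animals (SD, n = 4), with 0.84 ± 0.26. Both lost their direction when the lubricin-high libraries were added, with Igf1 at -0.02 and Vcan at -1.13. On the lower side stood Klf6, an early-response transcription factor, with -0.37 ± 0.10. So did Xbp1, a factor of the unfolded protein response, with -0.33 ± 0.11, and Timp3, an inhibitor of matrix proteases, with -0.34 ± 0.10. Jun, Jund and Nr4a3, of the same immediate early list as Klf6, separated the animals on the higher side, as did the interferon-stimulated Ifit3b and Ifi35. Timp3 ran against its list of other matrix genes, where 38 of 45 were higher, although 40 were lower with all 16 libraries. Over all genes 1.78% separated the animals higher and 1.86% lower. Without placebo animal 4 Xbp1 had -0.18 ± 0.15 and Timp3 -0.15 ± 0.12.

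The summed markers of the other cell types in muscle overlapped between treatments. Of 18 endothelial genes 11 were lower, with a median of -0.03. Vwf and Aqp1 alone of the list separated the animals, both lower, against 1.86% of all genes. With all 16 libraries 13 endothelial genes were higher, with a median of 0.14. Of 13 Schwann cell and myelin genes 11 were lower, against 50.1% of all genes, with a median of -0.23. Their summed levels were 54.4 to 152 CPM with inhibitor and 64.8 to 126 CPM with placebo. The median of this list was 0.17 in healthy and -0.50 in injured limbs alone. With all 16 libraries it was 0.07, and 8 members were higher. Adipocyte genes were split into 9 higher and 10 lower, with a median of -0.01. Among them Lep, the adipocyte hormone leptin, was at 4.05, 6.91, 1.71, 1.33 and 8.66 CPM against 0.0497 to 4.27 CPM, the lowest of which lay under the floor of 3 counts. Fibro-adipogenic progenitor genes, from the connective tissue cells between fibres, had 17 of 18 members higher with a median of 0.20, and -0.13 with all 16 libraries. Joint lining and cartilage genes, the group to which the selecting gene belongs, had summed levels of 149.8 to 308 CPM with inhibitor and 144 to 297 CPM with placebo. Because the libraries were selected on Prg4, the overlap of this group is tied to the selection and is not a result.

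No gene of muscle wasting passed the test. Of 27 tested atrophy genes 23 had a negative log2 difference, against 50.1% of all genes, with a median of -0.13 against -0.0005. An unadjusted p below 0.05 was reached by 3 with a negative difference, against 2.48% of all genes. Fbxo32 (atrogin-1), a ubiquitin ligase that marks muscle proteins for degradation, was at 788, 834, 424, 633 and 711 CPM against 211 to 660 CPM, so that the groups overlapped, with a log2 difference of -0.59 ± 0.25. Foxo3, a transcription factor that drives atrophy genes, had -0.25 ± 0.09 and Klf15, a glucocorticoid-induced factor, -0.41 ± 0.17. That of Foxo3 was -0.16 ± 0.08 without placebo healthy 1, and that of Klf15 was -0.24 ± 0.12 without inhibitor animal 3 and -0.67 ± 0.21 without placebo animal 4. The second ligase, Trim63 (MuRF1), had -0.32 ± 0.21 and the growth inhibitor Mstn 0.04 ± 0.20 (95% interval -0.43 to 0.50). The direction of the list depended on the lubricin-high libraries: with all 16 the median was 0.02.

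Among 22 genes of satellite cells and myogenesis, 16 had a positive log2 difference and the median was 0.17, but with all 16 libraries 13 were lower, with a median of -0.13. Myf6, a transcription factor of mature fibres, had a log2 difference of 0.36 ± 0.09 and separated the animals, at 55.6 ± 4.11 against 43.4 ± 5.14 CPM (SD, n = 4). It alone of the 22 did so, against 1.78% of all genes that separated the animals higher. Myog, which directs myoblast fusion, had 0.46 ± 0.24. Among 23 neuromuscular junction and denervation genes 13 were lower, with a median of -0.08. Lrp4, the receptor for the nerve signal agrin, separated the animals at 11.1 ± 0.76 against 14.2 ± 1.29 CPM, with -0.32 ± 0.11. Lrp4 alone of the 23 did so, against 1.86% of all genes that separated the animals lower.

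No collagen or tendon gene passed the test, and none separated the animals. All 6 fibrillar collagen genes had positive log2 differences, against 49.9% of all genes, with a median of 0.58, and 2 of them had an unadjusted p below 0.05, against 2.34% of all genes. Without placebo animal 4 the median was 1.25, and without placebo animal 1 it was 0.37. Col1a1, the main collagen of connective tissue, was at 16.3, 47.1, 75.2, 81.1 and 66.9 CPM against 61.9 to 208 CPM, with 0.76 ± 0.42, and Col5a2 had 0.58 ± 0.23, or 0.37 ± 0.21 without inhibitor animal 3 and 0.96 ± 0.32 without placebo animal 4. All 11 tested tendon genes had positive log2 differences, with a median of 0.54, and 1 had an unadjusted p below 0.05. It was Scx, the transcription factor of tendon cells, with 0.74 ± 0.27, or 0.35 ± 0.35 without placebo animal 4. With all 16 libraries the medians were -1.89 for fibrillar collagens and -0.18 for tendon genes. The positive direction of both lists is thus tied to the selection on Prg4 and holds for the 12 libraries only. Inhibitor injured 3 held the most Col1a1, at 208 CPM, and placebo healthy 1 the least.

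Fibre type differed widely between libraries of 1 treatment. All 18 slow fibre genes had positive log2 differences, with a median of 0.85, but none had an unadjusted p below 0.05. Without placebo animal 4, which is 1 library, the median was -0.15. Myh7, the myosin of slow fibres, was at 25.4, 454, 765, 112 and 17.5 CPM with placebo and at 5.31 to 1514 CPM with inhibitor, with a log2 difference of 2.35 ± 2.01 (95% interval -2.69 to 7.39), or 0.12 ± 1.82 without placebo animal 4. Without that library Tnnt1, the slow skeletal troponin T, had 0.36, and Myl2, a slow myosin light chain, and Atp2a2, a calcium pump, turned to -0.15 and -0.27. The summed level of the list ran from 1112 to 6832 CPM with inhibitor and from 1081 to 3867 CPM with placebo. Its median was -0.08 in healthy limbs and 1.13 in injured limbs. Fast fibre genes had a median of -0.04 with 9 higher and 10 lower, and nuclear genes of oxidative phosphorylation one of 0.08 with 44 of 49 higher. These medians were 0.20 and -0.02 without placebo animal 4.

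Whether the difference between inhibitor and placebo itself depended on the limb was asked with an interaction of treatment and limb over the 12 libraries. EdgeR called 0 of 16046 genes (0.0%), with 401 (2.5%) at an unadjusted p below 0.05, and limma-voom also called 0, with 529. The clock genes had interaction estimates of -0.17 ± 0.49 for Per1, -0.17 ± 0.54 for Per2, -0.07 ± 0.20 for Bhlhe40 and -0.15 ± 0.18 for Usp2 on the log2 scale. In healthy limbs alone Per1 had -1.34 and Per2 -1.46, and in injured limbs alone -1.51 and -1.62. For Irf2bp2 the values were 0.82 and 0.87, with an interaction of 0.05 ± 0.23.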

How the data were processed

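Per the labels' protocols, TRIzol and a column kit were used to extract total RNA for the 16 libraries. The values deposited by the authors are expected counts (estimated counts per Ensembl gene, not normalized) in 1 table. The submitters' processing notes list STAR, Partek, DESeq2 and the build GRCm38/mm10 without stating what each did. Of the deposited values 24.2% lay over 0.01 from a whole number, and counts were rounded. The table held 17370 genes, of which 17338 received a symbol by Ensembl ID from GENCODE M21.

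The members and the 45 gene lists were chosen with earlier results of these data known. Counts of the 12 libraries were summed per animal. EdgeR 4.0.16 in R 4.3.3 filtered low counts with filterByExpr (minimum count 10, 1324 genes removed), scaled by TMM and fitted treatment and limb share by robust quasi-likelihood (16046 genes, 5 residual degrees of freedom, common biological coefficient of variation 0.187). The interaction was fitted to the 12 libraries (8 residual degrees of freedom). Tests were two-sided with Benjamini-Hochberg adjustment at 0.05. CPM were computed over the column total, and animal means from summed counts. The floor of 3 counts covers counting error only. Limbs of 1 animal deviated together little (r = -0.07, 0.04 and -0.14 in inhibitor animals 2 to 4, 0.10 in placebo animal 1, across genes), and limma 3.58.1 gave a correlation within animals of 0.086.

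On simulated counts the pooled comparison (15946 genes, 195 changed) recovered 67.7% of 2-fold and 84.4% of 4-fold changes with 9 of 157 calls false. The interaction (15613 genes, 197 changed) recovered 23.5% and 62.6% with 6 of 91 false. The 12 libraries were simulated as independent, without an effect of animal or limb. These shares therefore check the code and do not measure how many real changes of that size were missed. Alternatives were DESeq2 size factors, no count filter, DESeq2 1.42.0, libraries as units in edgeR or limma-voom, a replicate block, all 16 libraries, each limb alone, no limb covariate, and each animal or library left out. Genes were named by a rule: up to 10 higher and 10 lower genes with a mean log2 CPM of at least 1 whose animals did not overlap, by smallest p as none was called, leaving out predicted genes and joint genes; the member of each list with the smallest p, or up to 4 where its median lay at least 0.3 from that of all genes; and fixed genes. The text prints a subset. Irf2bpl, Irf2bp1, Slc4a8 and the further members of described lists were chosen after their values were seen. Plots used matplotlib 3.10.9 under Python 3.11.15.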

Additional observations from a re-analysis of the deposited data

Results flagged for a closer look

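In 526 groups of 5 or 7 libraries (1 gene and 1 treatment each), 29 had a library whose distance to its nearest neighbour, relative to the whole range, passed Dixon's critical value, where chance flags about 1 in 20 groups. Inhibitor injured 3 was the high library for 11 genes of matrix and of immune cells: Col1a1 (207.6 CPM), Col3a1 (324.9), Fn1 (135.2), Tnc (10.51), Ccr2 (7.793), Laptm5 (10.93), Lyz2 (61.52), Ctss (5.69), Cybb (4.329), H2-Aa (28.0) and Itgax (0.9483).

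Placebo injured 1 stood apart for 9 genes. They were the phosphatase gene Dusp8 (54.97 CPM), the interferon-stimulated Ifit3b (3.051), the myeloid genes Inpp5d (3.861), Fcgr3 (5.196) and C5ar1 (3.909), the lysosomal protease gene Lgmn (29.94), Nampt (171.7), the autophagy gene Gabarapl1 (60.73) and the metallothionein gene Mt2 (6.96). Without this library the fit called 0 genes.

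Inhibitor healthy 2 stood apart for Tet2 (29.67 CPM), Sh3rf2 (48.8), Cry2 (36.23) and Eepd1 (131.7), each on the side of the placebo libraries. Inhibitor injured 4 did so for Cfd (719.1), Csnk1d (66.67) and Egr1 (16.03), inhibitor healthy 4 for Clock (54.59) and inhibitor injured 1 for Sln (19.0).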

How the results depend on the processing

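Counts of calls: against 0 higher and 0 lower, DESeq2 called 10 and 18, edgeR on libraries 2 and 5, limma-voom 2 and 3, and the fit with no limb covariate 1 and 0 (Irf2bp2). Leaving out an animal or library gave 0 to 1 higher and 0 to 3 lower. Without placebo animal 1 these were Ppp1r3c and Coq10b, without placebo animal 4 Cep85l, Hbb-bs and Hba-a2, and without inhibitor injured 3 or 4 Irf2bp2. DESeq2 size factors, no count filter, all 16 libraries and each limb alone called 0. DESeq2 gave no adjusted p to 3422 genes.

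With the replicate block 0 genes were called either way, the smallest adjusted p was 0.274 and the median of glucocorticoid-induced genes was 0.11 instead of -0.21. Replicate numbers did not pair the animals (r across genes between animals of 1 number -0.12, -0.18, -0.16 and 0.24, with 1 of 4 inhibitor animals best correlated with its own number).

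The medians of 22 of the 45 lists were recomputed under every alternative. Those that moved by more than 1 SD over animals were as follows, and the cause was not tested. With all 16 libraries they were -0.30 for the core clock, -0.38 for clock output, -1.31 for the CSF1R axis, -0.57 for resident, -1.55 for general and -0.44 for lipid-associated macrophages, -1.84 for monocytes, -1.23 for MHC class II, -0.48 for interferon-stimulated, 0.015 for atrophy, -0.13 for myogenesis, -1.89 for fibrillar collagen, -0.18 for tendon, 0.14 for endothelial, -0.62 for joint and 0.041 for muscle identity genes. In healthy limbs alone they were -0.22 for the core clock, 0.056 for resident macrophages, -0.26 for monocytes, 0.58 for MHC class II and -0.072 for oxidative phosphorylation. In injured limbs alone they were -0.24 for the core clock, -0.42 for clock output, -0.22 for the CSF1R axis, -0.66 for resident macrophages, 0.37 for monocytes, -0.42 for MHC class II and 0.050 for muscle identity. On libraries, edgeR gave -0.23 for the core clock and 0.038 for muscle identity, and limma-voom -0.11 and 0.074.

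Leaving out an animal or library gave medians of -0.50 to -0.20 for the core clock, -0.36 to -0.14 for clock output, -0.27 to 0.085 for the CSF1R axis, -0.13 to 0.27 for monocytes, -0.28 to 0.30 for MHC class II, -0.28 to 0.14 for glucocorticoid-induced, 0.070 to 0.27 for myogenesis, -0.13 to 0.078 for neuromuscular junction, 0.37 to 1.25 for fibrillar collagen, -0.11 to 0.20 for fast fibre and -0.082 to 0.12 for muscle identity genes. Among named genes with an unadjusted p below 0.05, 8 changed sign: in healthy limbs alone Cd163 to 0.29 and Lep to 0.24, and with all 16 libraries Igf1 to -0.024, Vcan to -1.13, Col5a3 to -0.26, Col5a2 to -1.83, Scx to -0.10 and Pcolce to -0.52. Over the named genes above that p and all alternatives, 551 further values changed sign. At levels of a few CPM and 4 animals against 4, the intervals of Csf1r and Adgre1 still held a 2-fold lower level.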

Other observations

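Among fuel-use genes Pdk4, the kinase that shuts pyruvate off from oxidation, had a log2 difference of 1.21 ± 0.32. It was at 353, 544, 171, 253 and 584 CPM in placebo libraries and at 277 to 1393 CPM (median 1100) with inhibitor, where inhibitor healthy 2 alone lay below 584 CPM. DESeq2 called Pdk4 at an adjusted p of 0.00324 and edgeR gave 0.988, within a range of 0.00324 to 1.00 over the alternatives. Angptl4, an inhibitor of lipoprotein lipase, had 1.13 ± 0.35. Of 28 fatty acid oxidation genes 22 were higher, against 49.9% of all genes, with a median of 0.11. That median was -0.07 in healthy limbs alone and 0.11 in injured limbs alone. With all 16 libraries it was 0.31, and all 28 were higher. Pdk4 and Angptl4 were also the 2 higher members with an unadjusted p below 0.05 among 22 glucocorticoid-induced genes, where Per1, Klf9, Foxo3 and Klf15 were the 4 lower ones and the median was -0.21.

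In the 4 lubricin-high libraries, which entered no comparison above as a group, Csf1r was at 14.4 CPM in inhibitor healthy 1 and at 74.5, 66.6 and 31.4 CPM in placebo injured 2, placebo injured 3 and placebo healthy 4. In the same order Ctss was at 5.63, 117, 77.2 and 32.7 CPM, Ccr2 at 3.54, 64.1, 54.4 and 18.4 CPM and Col1a1 at 114, 1716, 728 and 2197 CPM. With 1 inhibitor library against 3 placebo libraries these values carry no test.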
